A study of Mus musculus with 31 samples.

Results

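The promoter peaks of noncoding RNA genes in NIH-3T3 mouse fibroblasts are 599 of the 63456 ATAC-seq peaks of the parental line. Each overlaps an annotated transcript start of a gene that makes a long RNA without a protein product, and each lies more than 1 kb from every annotated start of a protein-coding gene. The peak list, the annotation and the distance to coding starts chose the members, with no cut on height beyond the peak call itself. A wide peak overlaps a start more easily, and wider peaks were higher, so the choice is not free of height. Of 1538 peaks over a noncoding start, 939 (61.1%) lay within 1 kb of a coding start and were set aside, because at such shared promoters the accessibility of the noncoding gene cannot be told apart from that of its coding neighbour. The 599 peaks covered starts of 602 genes, of which 384 were long intergenic noncoding RNAs (lincRNA), 115 were antisense genes, 93 were processed transcripts (RNAs without an open reading frame) and 10 were sense intronic genes. No gene of the bidirectional promoter class was among them, and the annotation used held 0 genes of the plain lncRNA type.

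The series measured accessible chromatin in NIH-3T3 cells that overexpressed 1 of several transcription factors, in rtTA3G control cells and in the parental line, 31 samples in all. Values were available here for the parental sample alone, so 30 samples were not analysed here and the report makes no comparison between conditions. NIH-3T3 is an immortalised and aneuploid line of mouse embryonic fibroblasts, and the labels list neither a transgene nor doxycycline for the parental cells. In the assay, the Tn5 transposase cuts exposed DNA and inserts sequencing adapters, so that open regions such as active promoters and enhancers gather fragments. Replicate error cannot be given from 1 library, so the intervals below cover counting error alone.

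The label of the cells was checked on coding promoters. A peak covered a start of 9 of 10 fibroblast marker genes, among them Col1a1, Col1a2, Col3a1, Fn1, Vim, Pdgfra, Pdgfrb and Twist1, and Thy1 was the marker without a peak. Markers of epithelium (0 of 6), blood (0 of 5), nerve (0 of 4) and pluripotent cells (0 of 4) had none, and of 4 endothelial markers Cdh5 had a peak.

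Long noncoding RNAs are transcribed by RNA polymerase II, often capped, spliced and polyadenylated like messenger RNAs. Some act in the nucleus on the chromatin around their own gene, such as the RNAs of the X-inactivation centre and of imprinted clusters. Others serve as the precursor from which small nucleolar RNAs (snoRNAs) or microRNAs are cut, and for many the act of transcription or an enhancer inside the promoter is what is known to matter. Their promoters are known to hold fewer CpG islands than those of coding genes. A CpG island is a stretch rich in the dinucleotide CG and typical of housekeeping genes.

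The promoters of 7 members are printed to show the sequence classes on which the description turns: GC-rich promoters with boxes for SP/KLF factors, and CpG-poor promoters with an AP-1, CCAAT or CArG sequence. They were chosen after their values had been seen. Each reaches 100 bp to either side of the peak summit, in the mm10 build and on the strand of the gene, read 5′ to 3′. Capitals mark the motif matches named for each, on either strand, and a match is a description of letters and not evidence that a factor binds there.
Snhg6, chr1:9944044-9944244, minus strand, with ETS and SP/KLF sequences: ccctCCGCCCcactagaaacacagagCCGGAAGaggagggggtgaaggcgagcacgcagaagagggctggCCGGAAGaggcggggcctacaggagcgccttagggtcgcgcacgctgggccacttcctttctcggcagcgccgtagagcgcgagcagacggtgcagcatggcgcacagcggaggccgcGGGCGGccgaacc
Gm10010, chr6:128200663-128200863, minus strand, with 3 SP/KLF sequences: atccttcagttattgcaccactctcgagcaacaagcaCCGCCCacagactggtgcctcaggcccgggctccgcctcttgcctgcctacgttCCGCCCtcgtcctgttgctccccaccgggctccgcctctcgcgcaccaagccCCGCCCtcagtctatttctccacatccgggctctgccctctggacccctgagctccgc
Jpx, chrX:103493376-103493576, plus strand, with 2 overlapping SP/KLF sequences: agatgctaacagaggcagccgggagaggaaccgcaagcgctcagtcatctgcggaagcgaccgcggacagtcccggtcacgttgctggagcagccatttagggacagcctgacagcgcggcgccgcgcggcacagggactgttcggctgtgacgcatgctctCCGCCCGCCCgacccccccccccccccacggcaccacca
Mir155hg, chr16:84703235-84703435, plus strand, with an AP-1 and a TATA sequence: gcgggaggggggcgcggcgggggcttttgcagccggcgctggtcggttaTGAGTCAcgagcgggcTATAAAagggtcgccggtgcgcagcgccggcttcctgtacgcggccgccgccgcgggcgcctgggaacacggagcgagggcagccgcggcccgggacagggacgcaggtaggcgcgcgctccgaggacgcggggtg
Junos, chr4:95098352-95098552, plus strand, with an AP-1 and a CCAAT sequence: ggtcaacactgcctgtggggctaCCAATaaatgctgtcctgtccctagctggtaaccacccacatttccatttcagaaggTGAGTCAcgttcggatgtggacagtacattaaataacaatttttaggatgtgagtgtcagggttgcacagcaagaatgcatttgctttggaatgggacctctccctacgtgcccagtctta
Kcnq1ot1, chr7:143296573-143296773, minus strand, with 3 CCAAT sequences: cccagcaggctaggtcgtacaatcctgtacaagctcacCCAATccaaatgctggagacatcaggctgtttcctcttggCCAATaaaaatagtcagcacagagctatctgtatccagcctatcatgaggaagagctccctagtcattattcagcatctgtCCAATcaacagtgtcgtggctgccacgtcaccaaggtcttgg
Dnm3os, chr1:162217495-162217695, plus strand, with an SRF sequence (a CArG box): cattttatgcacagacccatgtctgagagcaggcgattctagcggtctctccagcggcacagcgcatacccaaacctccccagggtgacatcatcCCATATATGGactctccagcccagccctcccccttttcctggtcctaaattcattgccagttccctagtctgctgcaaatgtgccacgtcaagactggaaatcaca
The first 4 windows were CpG-rich, meaning at least 50% G and C and a ratio of observed to expected CpG of at least 0.6, and the last 3 were CpG-poor. Their GC content ranged from 76.1% at Mir155hg to 47.3% at Junos.

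Accessibility at noncoding starts was the exception. Of 8369 noncoding genes with a start more than 1 kb from any coding start, 602 (7.19%, Wilson 95% interval 6.66 to 7.77) had a promoter peak, against 10676 of 21938 protein-coding genes (48.7%). A gene counted as open when any of its starts lay in a peak. Noncoding genes had a median of 1 transcript, while the coding genes had 39001 CpG-rich and 54461 CpG-poor transcript starts. Starts near coding starts were left out for noncoding genes alone. The part of these in the difference was not tested. Among noncoding genes the open share was 6.97% for lincRNAs (384 of 5508), 5.76% for antisense genes (115 of 1998), 17.2% for processed transcripts (93 of 541, interval 14.2 to 20.6) and 3.28% for sense intronic genes (10 of 305). The interval of the processed transcripts did not overlap those of the other 3 types. For the 17 eligible genes of the bidirectional promoter class the count of 0 allows a share of up to 17.6%. All peaks together covered 1.01% of the assembled genome.

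Noncoding genes with a CpG-rich start were open more often than those without. A peak was found at 177 of 593 genes with a CpG-rich start (29.8%, 26.3 to 33.7) and at 425 of 7776 with CpG-poor starts (5.47%, 4.98 to 5.99). In the same classes 74.7% and 11.2% of coding genes had a peak. Noncoding genes thus had the lower share within each class, with the same limits from starts per gene and from the distance rule. Among CpG-rich starts the share was 51.5% for processed transcripts (51 of 99), 29.5% for lincRNAs (95 of 322) and 18.9% for antisense genes (31 of 164). Because CpG-poor starts are so numerous, they still supplied 425 of the 602 genes.

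**Figure D1:**
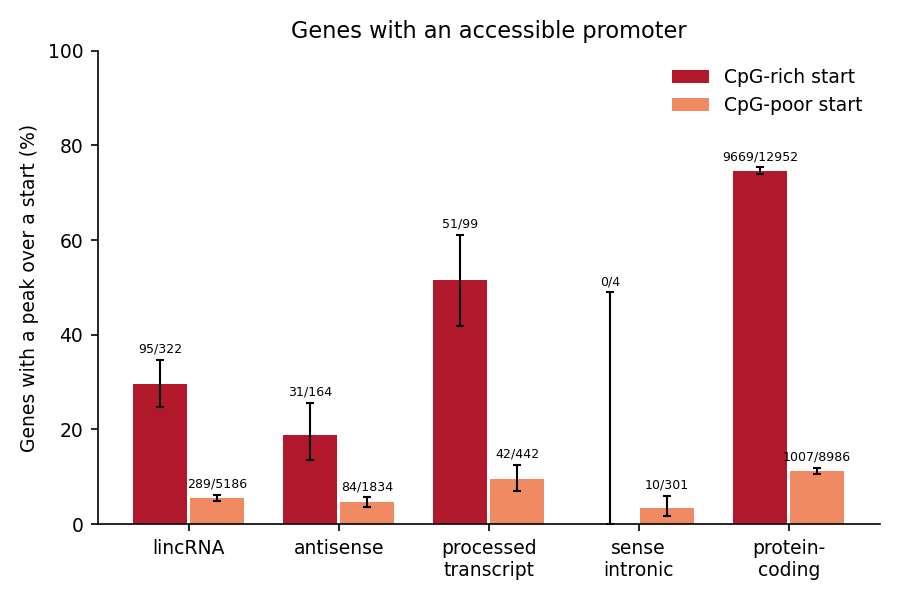
Share of genes with a peak over a start (y axis, %), by gene type and by the CpG class of the start, with Wilson 95% intervals and the counts above each bar. CpG-rich starts have the higher share in lincRNA, antisense, processed transcript and protein-coding genes, with 51.5% for processed transcripts against 74.7% for protein-coding genes, while only 4 sense intronic genes have a CpG-rich start.

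Around the start, the peaks formed a narrow maximum. Over 734 CpG-rich noncoding starts lying more than 5 kb from coding starts, 38.1% were covered by a peak at the start itself, 3.27% at 1 kb upstream and 2.86% at 1 kb downstream. Over 9636 CpG-poor noncoding starts the values were 5.67% at the start, 1.62% at 1 kb upstream and 1.59% at 1 kb downstream. The maximum was therefore present in both classes, and lower than the 75.6% and 9.81% of CpG-rich and CpG-poor coding starts. Transcripts of 1 gene share or neighbour each other's starts, so these starts are not independent of each other.

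**Figure D2:**
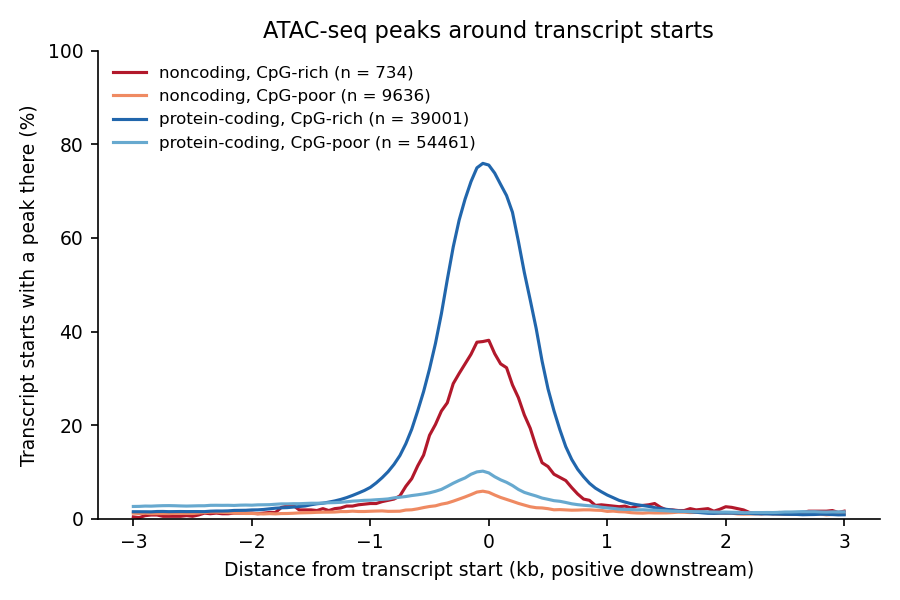
Share of transcript starts (y axis, %) at which a peak covers the position given on the x axis (kb from the start, positive downstream), in steps of 50 bp, for noncoding starts more than 5 kb from coding starts and for protein-coding starts. All 4 curves reach their maximum within 50 bp of the start, near 38% for CpG-rich and near 6% for CpG-poor noncoding starts.

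The summit of a member peak lay at a median of 54 bp upstream of the nearest noncoding start (signed distance -54 bp, quartiles -120 and 3 bp). It was within 100 bp of the start in 356 members (59.4%) and upstream of it in 438 (73.1%). For coding promoter peaks the median was -27 bp, with 73.5% within 100 bp. The covered start nearest the summit was the 5′ end of the annotated gene in 478 members (79.8%). Some peaks cover several starts, and with 5′ ends alone 514 peaks met the rule.

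Genes with an open promoter were longer and more elaborately annotated. Of the 602 genes, 43.9% had at least 2 annotated transcripts, against 24.0% of the 7767 without a member peak. Their median spliced length was 1333 against 895 bp, and their median gene length 10210.5 against 6213 bp. The share of genes with 1 exon was 4.32% and 6.27%, so that most genes of both groups were spliced. More annotated starts also give a gene more positions at which a peak can overlap, and the part of this in the difference was not tested.

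The state of the coding neighbour went with that of the noncoding gene. The nearest coding gene had a promoter peak for 67.1% of noncoding genes with an open promoter (404 of 602, interval 63.3 to 70.7) and for 49.5% of those without (3847 of 7767). Put the other way, 9.50% of noncoding genes beside an open coding gene were open and 4.81% beside a closed one. The order held in each of the 6 distance classes, from 7.14% against 1.83% at 1 to 2 kb, through 11.7% against 6.30% at 10 to 50 kb, to 6.39% against 2.58% beyond 100 kb. Median distance to a coding start was 27.2 kb for open and 40.5 kb for closed noncoding genes. The open share was 4.67% at 1 to 2 kb, 9.18% at 10 to 50 kb and 4.23% beyond 100 kb. The nearest class is lowered by the distance rule, because 11 of its genes have a start peak that reaches within 1 kb of a coding start. With them, a count added after seeing the data, its share was 7.01% (33 of 471).

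The members lay between coding promoter peaks and distal peaks in size. A distal peak is here one more than 1 kb from every annotated start of any gene type. Peak height is given as the number of fragments over the summit, recovered from the deposited fold enrichment and p-value. The median was 47 fragments in members (quartiles 29 and 76.5), 63 in 10411 coding promoter peaks and 25 in 47192 distal peaks. Median fold enrichment over the local background was 7.92, 9.72 and 5.54 in the same order, and median width 537, 797 and 278 bp. Of the members, 54.9% exceeded 42 fragments, the upper quartile of distal peaks. The 939 noncoding start peaks set aside near coding starts had a median of 69 fragments and 898 bp.

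A wide peak covers more positions than a narrow one and so has more chances to overlap a start, and the medians are therefore also given within classes of width. Within peaks of 300 to 500 bp, the median was 38 fragments in 154 members, 38 in coding promoter peaks and 33 in distal peaks. Within 500 to 750 bp it was 55, 56 and 55 fragments, over 178 members. At 750 to 1000 bp it was 75 in 95 members, 72 in coding promoter peaks and 65 in distal peaks. In these 3 classes the medians of the members were within 10 fragments of those of both other sets.

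CpG-rich members were the larger ones. A CpG-rich summit was found in 148 members (24.7%, 21.4 to 28.3), against 77.5% of coding promoter peaks, 85.2% of the noncoding start peaks near coding starts and 1.86% of distal peaks. The 148 had a median of 56 fragments and 705.5 bp, and the 451 CpG-poor members 43 fragments and 500 bp. In coding promoter peaks the same classes had medians of 66 and 50 fragments. CpG-poor members remained higher than CpG-poor distal peaks, with a median of 25 fragments, without regard to width. By type, 42.9% of the peaks of processed transcripts were CpG-rich, 23.3% of those of lincRNAs, 23 of 115 of those of antisense genes and 0 of 10 of those of sense intronic genes. Median height was nearly level across types, at 47 fragments for lincRNAs, 48 for antisense genes and 50 for processed transcripts, and 36.5 for the 10 sense intronic genes.

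**Figure D3:**
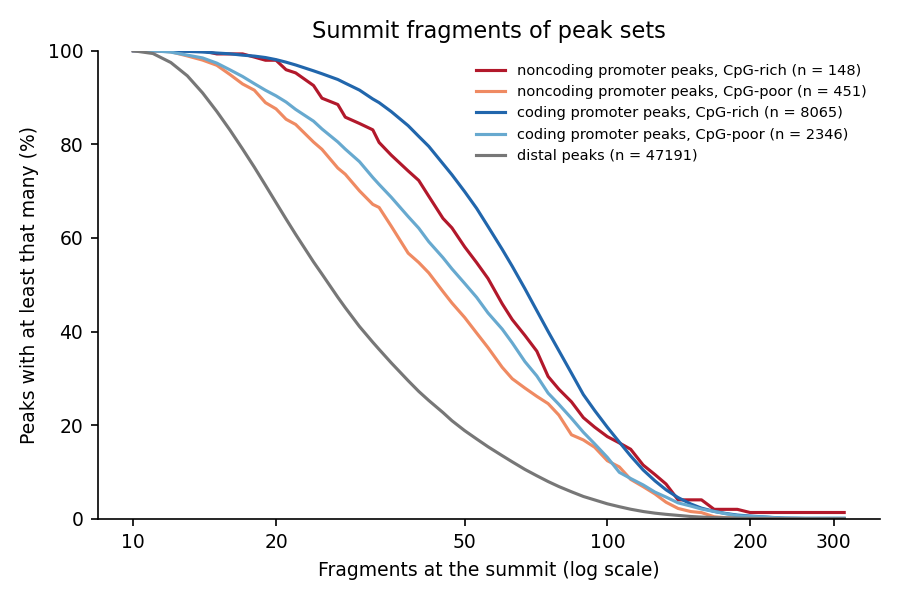
Share of peaks (y axis, %) with at least the number of summit fragments on the x axis (log scale), by peak set and CpG class. At every level from 20 to 100 fragments the members, CpG-rich or CpG-poor, lie to the right of the distal peaks and to the left of the CpG-rich coding promoter peaks, whose median is 66 fragments.

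Sequence at the summit divided the members along the same line. The AP-1 sequence TGACTCA, bound by Fos and Jun dimers, occurred within 100 bp of the summit in 140 members (23.4%, 20.2 to 26.9), against 4.90% of coding promoter peaks, 36.5% of distal peaks and 30.1% of all peaks. It was found in 28.8% of CpG-poor members and in 6.76% of CpG-rich ones. The SP/KLF sequence GGGCGG, the GC box of many housekeeping promoters, showed the opposite split, with 56.1% of CpG-rich and 13.8% of CpG-poor members, and 24.2% of all. A GC-rich window holds GGGCGG more often from its base composition alone, so these shares are to be read within a CpG class. Within the CpG-poor class, AP-1 was present in 28.8% of members, 15.2% of coding promoter peaks and 37.0% of distal peaks, and SP/KLF in 13.8%, 33.3% and 5.42%.

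The other sequences gave smaller differences. The ETS sequence CCGGAAG, common at housekeeping promoters, stood at 7.85% of members, 16.5% of coding promoter and 1.35% of distal peaks, and within the CpG-poor class at 6.21%, 6.48% and 1.26%. CCAAT, the NFY box, was found in 31.1%, 33.2% and 24.7%. The TATA sequence TATAAA was present in 5.51%, 2.77% and 9.41%, and the E-box CACGTG in 5.84%, 8.08% and 3.18%. Within the CpG-poor class TATAAA stood at 6.43%, 5.71% and 9.52%, and CACGTG at 4.21%, 5.16% and 3.10%. Without regard to CpG class, the TEAD sequence ACATTCC (4.67%, 1.39% and 5.53%), the RUNX sequence TGTGGTT (5.01%, 2.27% and 8.84%) and the CTCF sequence (3.01%, 0.91% and 4.43%) lay between coding promoter and distal peaks. Within the CpG-poor class RUNX and CTCF kept this order, while TEAD stood at 5.76%, 2.81% and 5.58%. The CRE TGACGTCA (1.17%, 3.07% and 0.32%) and the NRF1 sequence GCGCATGC (1.17%, 4.28% and 0.28%) were each found in 7 members. Within the CpG-poor class the CRE stood at 0.22%, 1.36% and 0.29%, and the NRF1 sequence at 0.44%, 0.77% and 0.22%. The YY1 sequence AAGATGG was present in 4.17%, 5.31% and 3.70%, and the SRF sequence in 0.67%, 0.81% and 1.28%. No member held the NFI sequence, which allows a share of up to 0.501%, and all peaks held it in 0.033%. Both strands were searched. The words can overlap, since an SRF match can hold CCAAT or TATAAA and the free letters of the NFI word can hold CCAAT.

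**Figure D4:**
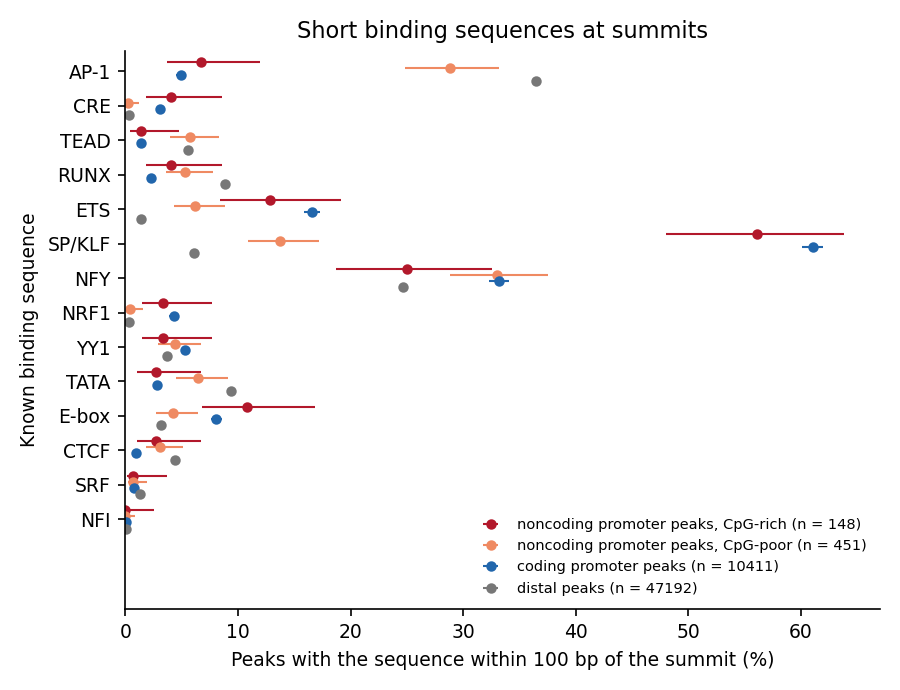
Share of peaks (x axis, %) with each short binding sequence within 100 bp of the summit, with Wilson 95% intervals, for CpG-rich and CpG-poor members, coding promoter peaks and distal peaks. AP-1 is at 28.8% in CpG-poor members and 6.76% in CpG-rich members, and SP/KLF at 13.8% and 56.1%.

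CpG-poor members with AP-1 were higher than those without. The 130 with the sequence had a median of 52.5 fragments and a fold enrichment of 9.15, and the 321 without it 38 fragments and 7.09. CpG-poor distal peaks showed the same order at a lower level, with 29 and 23 fragments. The median width of the 2 member classes was 530 and 487 bp.

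The most fragments were counted at Gm26917 (752) and AY036118 (699), neighbouring genes on chromosome 17 whose peaks lie over an annotated ribosomal RNA gene. Their fold enrichment was 2.03 and 1.95, because the local background expected 370 and 358 fragments. Copies of ribosomal DNA elsewhere share this sequence, so these fragments cannot be assigned to this locus, and without both peaks the highest member had 207 fragments. That was Gm26901, a lincRNA on chromosome 1 (chr1:7397657-7398657), with 207 fragments (exact Poisson 95% interval 180 to 237), a fold of 15.6 and SP/KLF and CCAAT sequences. Gm10010 on chromosome 6, the GC-rich promoter printed above, followed with 195 fragments (169 to 224) and a fold of 18.7. These intervals overlap, so the order of the leading genes is not resolved by the counts.

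The next 7 peaks had between 160 and 176 fragments. D230017M19Rik had 176 fragments over 1365 bp and none of the sequences searched. Junos, transcribed beside the AP-1 gene Jun and printed above, had 164 (140 to 191), with its summit 252 bp upstream of the Junos start and the peak 45935 bp from the nearest coding start, that of Jun. AC162612.1 had 163 and lay 149989 bp from the nearest coding start, that of Tmc1, which was closed. Gm15983, an antisense gene inside a coding gene, had 162 in a peak of 463 bp that lay 1135 bp from the start of Eef2kmt. Snhg6, 5430416N02Rik and Gm28199 had 160 each. The AP-1 sequence was present at Junos, AC162612.1 and Gm28199, and the ETS and SP/KLF sequences at Snhg6 and 5430416N02Rik.

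By fold enrichment the leading members were 2700038G22Rik at 22.7 with 136 fragments, Gm5784 at 22.6 with 85, AC151410.1 at 20.2 with 136, Gm4258 at 19.996 with 149 and 4930422M22Rik at 19.6 with 134. Both leaders had CpG-rich summits with an SP/KLF sequence, while AC151410.1 and 4930422M22Rik were CpG-poor with AP-1. Gm4258 was CpG-poor with CCAAT and lay 216402 bp from the nearest coding start, that of the leukocyte phosphatase gene Ptprc, which had no promoter peak. The widest members after Gm26917 (3727 bp) were 2410080I02Rik (2689 bp), 4475 bp from the start of the Krüppel-like factor gene Klf9, then Gm6410 (1927 bp), C920006O11Rik (1784 bp) and a peak shared by 1110002J07Rik and Gm26576 (1756 bp). The lowest member was Gm44145 with 11 fragments, and 59 members (9.85%) had fewer than 20.

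All 14 annotated genes of the snoRNA host list, which leaves out the imprinted host Snhg14, had an accessible start, 7 as members and 7 within 1 kb of a coding start. Of all eligible noncoding genes, 7.19% had a member peak. That share counts member peaks alone, so it can be set beside the 7 members and not beside all 14 hosts. The host genes carry snoRNAs, which guide the modification of ribosomal RNA, in their introns. The members were Snhg6 with 160 fragments (136 to 187), Snhg8 with 135 (113 to 160), Snhg15 with 96, Snhg5 with 74, Snhg17 with 61, Snhg12 with 42 and Snhg20 with 40. All 7 were CpG-rich, 5 of 7 stood above the member median of 47 fragments, and the interval of Snhg6 lay above that of Snhg15 (77.8 to 117). The hosts near coding starts were Gas5 (86 fragments, with Zbtb37), Zfas1 (74, with Znfx1), Snhg1 (102, with Slc3a2), Snhg3 (40, with Rcc1), Snhg9 (48, with Rps2), Snhg10 (180, with Glrx5) and Snhg18 (83, with Sema5a). Each of these peaks overlapped the coding start itself, so their height belongs to both genes.

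The microRNA hosts were mixed, with 5 of 11 annotated genes as members, beside 7.19% of all eligible noncoding genes. Dnm3os, which carries microRNAs of mesenchymal tissue on the opposite strand of an intron of Dnm3, had 107 fragments (87.7 to 129) in a CpG-poor peak, printed above with its CArG box. Dleu2 had peaks of 67 and 55 fragments at 2 starts, and Mir670hg (60) and Mir99ahg (42) had theirs at internal starts. Mir155hg, host of the immune-related microRNA miR-155, had 38 fragments (26.9 to 52.2) with the AP-1 and TATA sequences at positions 50 and 66 of the printed window, and it was the lowest of the group. Mir22hg lay within 1 kb of Tlcd2. No peak covered a start of H19, Mir17hg, Mir124a-1hg, Mir124-2hg or Mir9-3hg, although a peak with 46 fragments lay 340 bp from the nearest start of Mir17hg.

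Among the genes of the X-inactivation centre, Jpx and Ftx, which are known to promote Xist expression, were open and Xist itself was not. Jpx had 46 fragments (33.7 to 61.4) in an 826-bp CpG-rich peak. Ftx had 3 peaks at different starts, with 59, 52 and 23 fragments. Firre, an X-linked RNA retained in the nucleus, had 26 (16.98 to 38.1) at a CpG-poor start. No peak covered a start of Xist, the RNA that coats the inactive X, or of its antisense partner Tsix. The nearest peaks to them lay 5486 and 3719 bp away. All 16 members on the X chromosome had a median of 35.5 fragments against 47 on the autosomes, and 9 of the 16 were CpG-rich. Their median fold over the local background was 8.53 against 7.92 on the autosomes, with 2.81 against 4.85 fragments expected, so the order depends on the scale.

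Of 9 imprinted noncoding genes, 2 were members, beside a member peak at 7.19% of all eligible noncoding genes. Kcnq1ot1, the antisense RNA that silences its cluster on the paternal chromosome, had 47 fragments (34.5 to 62.5), and the window printed above holds 3 CCAAT sequences at positions 39, 79 and 160 from its 5′ end. Airn, an antisense gene whose expression is known to silence Igf2r on the paternal chromosome, had 58 (44.0 to 74.98), and its peak lay 9013 bp from the Igf2r start. Both stood at CpG-poor summits. H19, Meg3, Rian, Mirg, Nespas, Peg13 and Snhg14 had no peak over a start, and the nearest peak lay between 1360 bp (Mirg, with 92 fragments) and 88960 bp (Snhg14) from a start of theirs. An imprinted promoter is known to be active on 1 parental copy, and these fragments were not assigned to parental copies.

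Of the nuclear and abundant RNAs, Neat1, the scaffold of paraspeckles, had 59 fragments (44.9 to 76.1) in a peak that also covered a start of Frmd8os on the other strand. Its fold of 4.41 was below the member median of 7.92, against a local expectation of 12.6 fragments. Pvt1, the neighbour of Myc, had 58 at a peak 50309 bp from the Myc start. Lncpint, an RNA known to be induced by p53, had 3 peaks with 90, 41 and 43 fragments. Epb41l4aos had 39. Tug1 and Rmrp, the RNA subunit of a ribonuclease, were open within 1 kb of Morc2a and Ccdc107. Malat1, a highly expressed RNA of nuclear speckles, had no peak over its annotated starts, and a peak with 46 fragments lay 509 bp from the nearest of them, while Miat had its nearest peak 8781 bp away.

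Of 21 annotated developmental and stress RNAs, 15 had no peak over any start and 4 were members, beside a member peak at 7.19% of all eligible noncoding genes. Closed genes included Hotair and Hottip of the Hox clusters, Fendrr, Rmst, Sox2ot, Six3os1 and Dlx6os1. Peaks nonetheless lay 75 bp from the nearest start of Dlx6os1, 156 bp from that of Hotair and 299 bp from that of Tbx3os1, a gene also counted as closed. The 4 members were Ptgs2os2, 64471 bp from the inducible prostaglandin synthase gene Ptgs2, with 104 fragments (85.0 to 126), Bvht and Carmn, neighbouring RNAs known from heart and smooth muscle, with 49 and 48, and Trp53cor1, a p53 target 11657 bp from the start of Cdkn1a, with 42 (30.3 to 56.8). All 4 were CpG-poor. Emx2os was open within 1 kb of Emx2. Over the 6 lists, 25 of 67 annotated genes were members with 30 peaks, 12 were open near a coding start and 30 had no peak. The 30 peaks had a median of 53.5 fragments beside 47 for all members, and 20 of 30 were CpG-rich beside 24.7% of members. The AP-1 sequence was held by 2 of 30, beside 23.4% of all members, 6.76% of CpG-rich and 28.8% of CpG-poor ones. The lists name well-studied genes and were drawn up with earlier results of these data known, so these counts describe the lists alone.

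**Figure D5:**
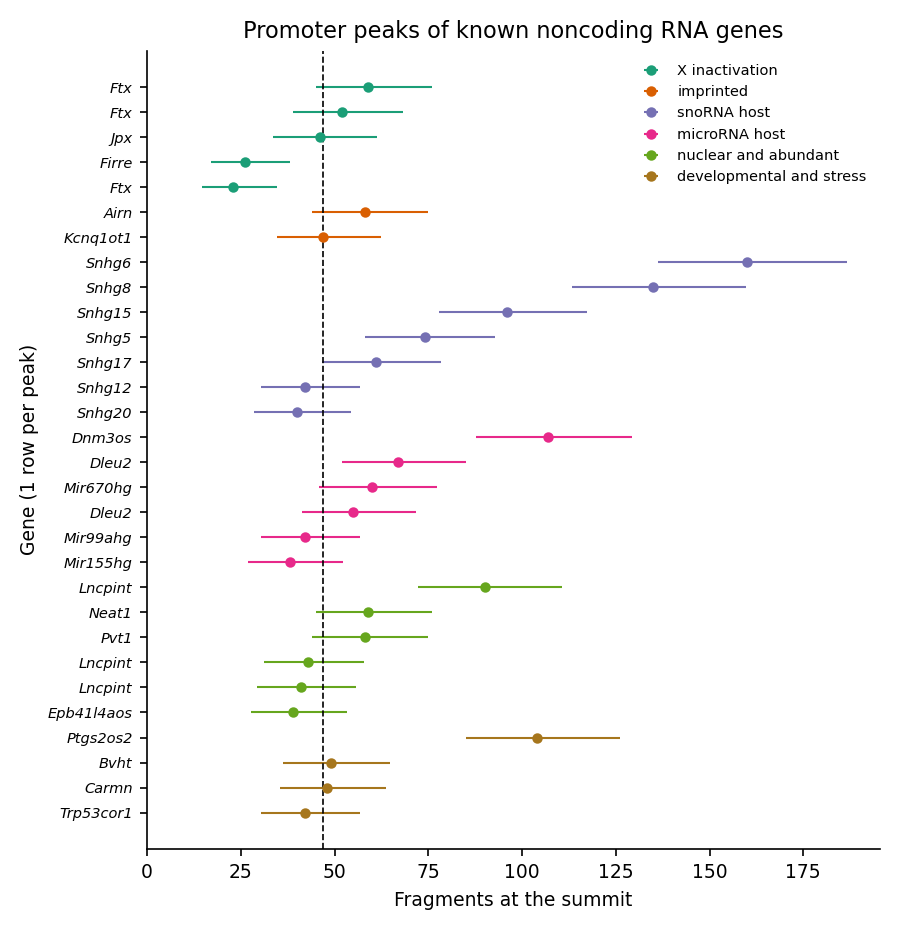
Fragments at the summit (x axis) of each member peak of the listed genes, 1 row per peak, with exact Poisson 95% intervals and colour by list. The dashed line is the median of all members, 47 fragments, and Snhg6 (160), Snhg8 (135), Dnm3os (107) and Ptgs2os2 (104) lie farthest to the right.

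Genes with symbols ending in os (opposite strand), or in os and a number, gave 27 open genes of 189 (14.3%). Of all eligible noncoding genes, 602 of 8369 (7.19%) were open. All genes with symbols other than the Gm, Rik and clone forms, os genes included, gave 82 of 457 (17.9%). Not all os genes are of the antisense type, since Ptgs2os2 is a lincRNA and Has2os a processed transcript. Junos led with 164 fragments, followed by Dnm3os with 107, Has2os, transcribed from the locus of the hyaluronan synthase gene Has2, with 106 (86.8 to 128), Ptgs2os2 with 104 and Kank4os with 77. All 5 were CpG-poor. The nearest coding gene was the partner in the name for each of them, and it was open for Jun, Dnm3, Has2 and Ptgs2 and closed for Kank4. The remaining peaks of this class ranged from 75 fragments at Fbxl12os to 13 at Pitpnm2os2. Across all members, 108 summits (18.03%) lay inside a coding gene, 92 of them on the strand opposite to it, and 9 in a coding exon. Of all peaks, 48.9% had a summit inside a coding gene and 10.1% in a coding exon. For distal peaks these shares were 45.6% and 2.85%. By type, 17 of 387 lincRNA peaks and 65 of 115 antisense peaks had a summit inside a coding gene. The part of the gene types in the member counts was not tested. Accessibility has no strand, so a member inside a coding gene cannot be separated from an enhancer in that gene by these data.

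Most genes had 1 member peak. Of 602 genes, 592 had 1, 7 had 2 and 3 had at least 3. 3110039I08Rik had 4 peaks with 20 to 28 fragments, all CpG-poor, and Lncpint and Ftx had 3 each. In 17 members the peak covered starts of at least 2 genes. At the distance limit, the nearest members were those of 1700007J10Rik, 1021 bp from the start of Mprip with 58 fragments, Gm13840, 1031 bp from Pxn with 34, and Gm15406, 1033 bp from Gm42791 with 39. The nearest peaks on the other side were those of Gm29395, 991 bp from Slc9a9 with 18 fragments, Gm48495, 938 bp from Palm with 24, and Gm30025, 834 bp from Dcaf5 with 23.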

How the data were processed

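ATAC-seq was made from 50000 parental NIH-3T3 cells with 0.5 µM Tn5 and 12 PCR cycles, per the labels. The submitters' processing notes name STAR 2.5.3a, Picard and MACS2 2.1.1.20160309 and the build mm10. How reads were trimmed or shifted for the Tn5 cut is not given in the sources used here. The authors' deposited peak list holds for each peak a score, a fold enrichment (a ratio over the local background), a −log10 p-value and a −log10 q-value, and no counts. The depth of this library cannot be read from the list, and the study's methods give it only as a range over its samples.

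The fragments at each summit and their expected number were solved from the deposited fold and −log10 p-value, which MACS2 derives from both. Every one of 1883 simulated summits was recovered. Their expected fragments all stayed below the highest of the members, 19.3 without the peaks over ribosomal RNA and 370 with them. Recovery at such backgrounds was not simulated. In the real list, 3 peaks left a residual over 0.01, and 1 of these could not be solved; none was a member. Starts came from GENCODE M21, which uses the same assembly, and sequence from GRCm38. Eligible genes had a start more than 1 kb from every coding start, and 11 of them whose peak itself reached within 1 kb of a coding start count as without a member peak. CpG class and motifs were read within 100 bp of the summit, or at the start for shares of genes. Python 3.11.15, pandas 2.3.3 and SciPy 1.17.1 were used. Intervals are Wilson for shares and exact Poisson for fragments, at 95%, and the limit given for a count of 0 is 3 counts of the total. No test was run, because peaks and genes are not replicates.

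The members and gene lists were chosen with earlier results of these data known. Named genes are the 10 members with most fragments, the 5 of highest fold, the 5 widest, the genes of 6 lists, the 5 highest os genes and the 3 nearest to the distance limit on each side. Gm28199, tied with the last of the 10, is named too. The NRF1 sequence was shortened to 8 letters after a first count. Listed genes without a value are those the annotation does not give under the noncoding types. The value of 1 listed gene is not reported here.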

Additional observations from a re-analysis of the deposited data

How the results depend on the processing

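No paired analysis was possible because 1 library was analysed. For 9 summary values, 51 results under other settings stayed within their counting interval or within 1.5 times the count, and 8 moved beyond it. With a fold of at least 5, the share of noncoding genes with a promoter peak was 5.771%, and the medians were a fold of 9.185, 54 fragments and 610 bp, since low peaks were left out. With the 5′ end of each gene alone the share was 6.441%. With lincRNA genes alone there were 387 members. With windows reaching 50 bp to either side of the summit the AP-1 share was 17.03%, in a shorter sequence. With at least 50% of the peak masked, in place of the summit, the masked share fell from 9.349% to 2.671%. Without the 2 peaks over ribosomal RNA, an alternative chosen after seeing the data, the medians were 46 fragments and 533 bp. Weak peaks rest on as few as 11 fragments, so a closed start is a start without a peak at this depth. Mappability was not measured.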

Other observations

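Repeats and chromosomes gave further differences among noncoding genes. Where every start lay in masked repeat sequence, 38 of 1983 genes were open (1.92%, 1.40 to 2.62), against 564 of 6386 with a start outside it (8.83%, 8.16 to 9.55). At the peaks themselves, 56 members (9.35%) had a summit in masked sequence, against 10.3% of distal and 3.34% of coding promoter peaks, and 1 CpG-rich member was among them.

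On the autosomes the open share ran from 3.87% on chromosome 8 (18 of 465, 2.46 to 6.04) to 13.0% on chromosome 17 (43 of 330, 9.82 to 17.1). The X chromosome, with 14 of 147 genes (9.52%, 5.76 to 15.4), lay within that range. On the Y chromosome 0 of 551 genes had a peak, which by counting alone allows a share of up to 0.544%. These genes are among the 8369 eligible ones. The study's methods kept only reads that aligned to 1 place. The part of this in the shares on the Y chromosome and at masked starts was not tested. Genes with a Rik symbol, given to cDNA clones, were open in 159 of 1508 cases (10.5%, 9.09 to 12.2) and those with a Gm symbol, given to gene predictions, in 331 of 5910 (5.60%, 5.04 to 6.22).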
